A study of Mus musculus with 6 samples.

Results

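Interferon-stimulated genes and the genes of class I antigen presentation were followed through 6 expression arrays of mouse NIH3T3 cells, an immortalised fibroblast line. The list held 32 genes by symbol, and 30 of them were named by at least 1 probe set (a group of probes for 1 transcript) that the platform annotation gives to a single gene. These 30 stand among 18193 genes named in that way. Ifi44 had no such probe set, and Isg15, which encodes a ubiquitin-like protein, was named only on a probe set shared with another gene, so neither is described. No filter on signal was used to choose the genes, and the probe set with the highest mean signal stood for each gene.

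All cells came from a single line, clone M, which carries multiple insertions of lacO, the operator DNA that the lac repressor binds. In the tethered group (3 arrays) the inserted DNA lay at the nuclear periphery, and in the untethered group (3 arrays) it lay in the nuclear interior. The study was set up to read the transcription of genomic regions brought to the inner nuclear membrane, and the agent that did so is not given in the labels. Both groups were grown in DMEM with 10% FCS to about 80% confluency, no interferon or infection is named for either, and nothing says whether arrays of a group came from separate cultures, so the spread between them may be technical.

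Interferons are secreted when a cell senses foreign nucleic acid through receptors such as RIG-I (Ddx58) and MDA5 (Ifih1). They act through receptors that activate JAK kinases, and factors that include STAT2 and IRF9 then bind interferon response elements in the promoters of target genes. The products block viral RNA and protein synthesis, or raise the supply of peptides to class I molecules on the cell surface. Fibroblasts answer both type I interferon and interferon gamma, and keep a low level of many of these genes without stimulation.

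Most of the genes had nearly the same signal in tethered and untethered cells. A log2 difference is tethered minus untethered, on intensities set to at least 16. Of 30 genes, 15 had a difference below 0 and 15 above it, with a median of -0.0046, and 27 lay within 0.2 of 0 on the log2 scale. Over all 18193 genes 54.2% were below 0, the median was -0.011 and 90.9% lay within 0.2 of 0, so the list was spread much as the whole array was. The 3 genes beyond 0.2 were Irf1 (-0.87), Ifit2 (-0.46) and Cxcl10 (-0.29), all with the lower value in tethered cells.

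The test was limma's linear model over the probe sets with a mean log2 signal above the median of all probe sets. It took in 17 of the 30 genes, and 13 lay below the filter. Limma called 0 of the 17 at an adjusted p under 0.05, and 0 of all 22518 tested probe sets (0%). An unadjusted p under 0.05 was reached by 536 of those probe sets. At an unadjusted p under 0.05 there was 1 of the 17, Ifit2, where 2.44% of all genes past the filter reached that level. Values and errors of the 13 genes below the filter come from the same model run on all probe sets, and are given as descriptions.

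The arrays of the groups did not overlap for 5 of the 30 genes. Ifit2, Irf1 and Tap1 had all 3 tethered values below all 3 untethered ones, where 4.49% of all genes did so. Ifih1 and Mx1 had all 3 tethered values above, where 5.31% of all genes did so. In the plot of deviations by array these are the rows in which the upper and the lower line of symbols separate.

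**Figure D1:**
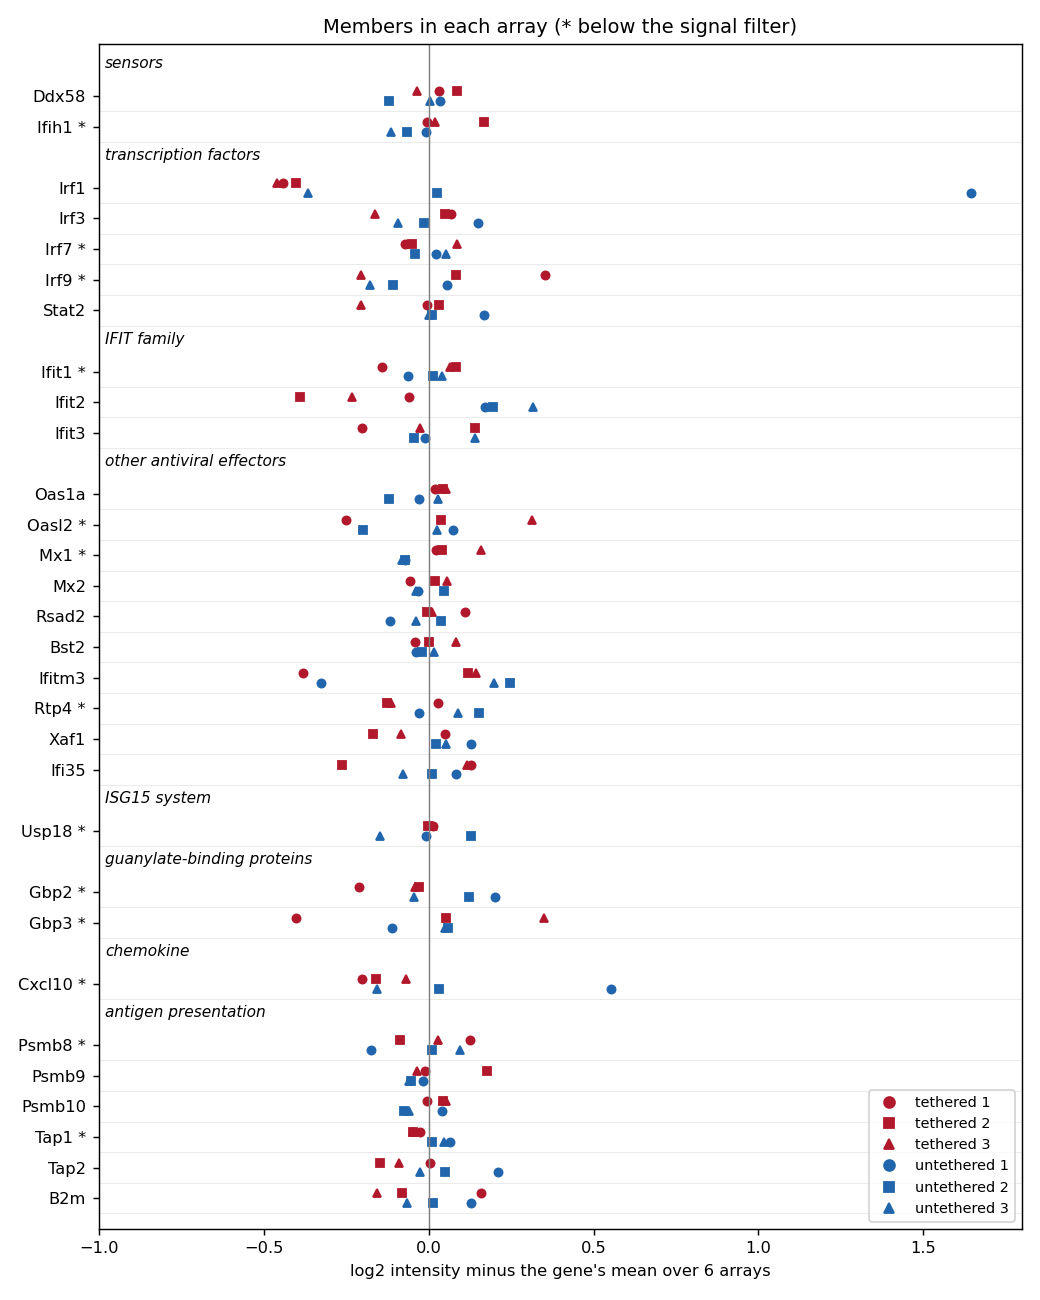
Deviation of each of 30 genes from its own mean over 6 arrays (x axis, log2 intensity; 1 symbol per array, red for tethered drawn above blue for untethered, shape for the array number), grouped by role. Most symbols lie within 0.2 of 0, and untethered replicate 1 stands far to the right for Irf1 and Cxcl10.

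The IFIT proteins bind viral RNA and hold back its translation, and their genes lie in a cluster on chromosome 19. Ifit2 had intensities of 1160, 922 and 1028 in tethered replicates 1, 2 and 3, against 1362, 1384 and 1505 in untethered replicates 1, 2 and 3. Every tethered value was below every untethered one. The group means were 1037 ± 119 in tethered and 1417 ± 77.0 in untethered cells (SD, n = 3 each), a ratio of 0.73. The log2 difference was -0.46 (SE 0.10, 95% interval -0.71 to -0.21; limma, unadjusted p = 0.0042, adjusted p = 0.999). With the same array number compared, the difference was -0.23, -0.59 and -0.55 in numbers 1, 2 and 3, and with 1 array left out it ran from -0.54 to -0.37.

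Its neighbours did not show the same separation. Ifit3 had 1164, 1475 and 1315 in tethered against 1329, 1299 and 1475 in untethered cells, and the ranges overlap almost fully. Its difference was -0.06 (95% interval -0.32 to 0.21). Ifit1, below the filter, had 173, 202 and 199 in tethered against 183, 193 and 196 in untethered cells, with a difference of 0.0048 (95% interval -0.19 to 0.20).

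The signal of Ifit2 was also set against its neighbours within each array, a comparison chosen after the values were seen. The log2 ratio of Ifit2 to Ifit3 was -0.35 ± 0.34 in tethered and 0.052 ± 0.035 in untethered cells (SD, n = 3 each; exact permutation p = 0.1, two-sided). The ratio of Ifit2 to Ifit1 differed by -0.46 between the groups, also with an exact permutation p of 0.1. That is the smallest value that 3 arrays against 3 allow, so this design cannot reach 0.05. Of the 3 ratios tested in this way, counting that of Psmb9 to Tap1, all had an adjusted p of 0.1. The adjustment covers these 3 alone and not their choice from the list. Ifit2 and Tap1 had already separated the groups on their own, so the ratios give no further support for a difference.

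The promoters of the 3 IFIT genes are shown because only some hold the interferon response element within 250 bases of the annotated start. They are RefSeq windows of build GRCm38.p6, 5′ to 3′ on the gene's strand and ending 1 base before the start. Capitals mark the core GAAANNGAAA on either strand or the STAT element TTCNNNGAA. The first lies at chr19:34550444-34550693, the second at chr19:34640639-34640888 and the third at chr19:34583279-34583528, all on the plus strand.
Ifit2: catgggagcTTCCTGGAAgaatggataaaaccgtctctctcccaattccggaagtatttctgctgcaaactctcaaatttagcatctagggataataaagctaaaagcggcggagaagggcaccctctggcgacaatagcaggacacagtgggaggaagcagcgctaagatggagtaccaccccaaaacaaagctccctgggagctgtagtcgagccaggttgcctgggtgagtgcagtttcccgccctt
Ifit1: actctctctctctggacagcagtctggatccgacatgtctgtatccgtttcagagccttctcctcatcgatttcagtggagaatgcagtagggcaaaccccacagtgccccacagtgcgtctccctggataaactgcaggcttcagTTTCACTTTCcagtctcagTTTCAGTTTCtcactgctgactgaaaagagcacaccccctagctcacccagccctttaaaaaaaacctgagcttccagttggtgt
Ifit3: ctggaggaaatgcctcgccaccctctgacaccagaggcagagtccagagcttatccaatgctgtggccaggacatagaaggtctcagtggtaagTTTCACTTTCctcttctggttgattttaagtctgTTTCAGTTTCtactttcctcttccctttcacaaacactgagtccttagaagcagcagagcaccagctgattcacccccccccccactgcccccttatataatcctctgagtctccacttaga

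Ifit1 and Ifit3 each had 2 matches to the response element, 104 and 85 bases before the start in Ifit1 and 156 and 122 in Ifit3. Ifit2 had none in this window or in the window of its second annotated start, and 1 match to the STAT element 241 bases before the start. Windows were found for 27 of the 32 listed genes, and not for Mx1, Mx2, Rtp4, Tap2 and Usp18. Of the 27 genes, 11 (40.7%) held the response element in at least 1 window, against 3.46% of all 27025 genes with a window, and the matches in some genes overlap one another. The 10 measured genes with a match (B2m, Bst2, Cxcl10, Gbp2, Gbp3, Ifit1, Ifit3, Oas1a, Rsad2 and Stat2) had a median difference of -0.025, and the 15 measured genes with a window and no match had -0.011. A match is a run of letters and not a measured binding site.

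Among the transcription factors, Irf1 had the largest difference, and it rested on 1 array. IRF1 is a factor that interferon gamma and inflammatory signals induce quickly. Irf1 had 1738, 1787 and 1716 in tethered replicates 1, 2 and 3, against 7386, 2401 and 1831 in untethered replicates 1, 2 and 3. The tethered arrays lie close together, while untethered replicate 1 is far above all others and untethered replicate 3 is only just above the tethered range. The log2 means were 10.77 ± 0.03 in tethered and 11.64 ± 1.07 in untethered cells (SD, n = 3 each). The difference of -0.87 (SE 0.50, 95% interval -2.10 to 0.36; limma, adjusted p = 0.999) was -0.26 without untethered replicate 1.

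Cxcl10, which encodes a chemokine that draws T cells and is induced by interferon gamma, had its highest value in that array too. It lies below the filter, with 195, 200 and 213 in tethered against 328, 229 and 201 in untethered cells. The groups overlap, since untethered replicate 3 lies within the tethered range. The difference of -0.29 (SE 0.18, 95% interval -0.73 to 0.15) was -0.08 without untethered replicate 1. Between arrays of the same number the difference was -2.09, -0.43 and -0.09 for Irf1 and -0.75, -0.19 and 0.09 for Cxcl10, in numbers 1, 2 and 3.

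Control probe sets on the array report on RNA quality through the signal near the 5′ end of a transcript minus that near its 3′ end. For the transferrin receptor this was -2.09, -1.67 and -1.55 in tethered and -2.81, -3.07 and -1.52 in untethered replicates 1, 2 and 3 (log2; exact permutation p = 0.4). The low values of untethered replicates 1 and 2 fall on the arrays with the highest Irf1 and Cxcl10. For GAPDH it was 0.089 ± 0.0066 in tethered and 0.018 ± 0.070 in untethered cells (log2, SD, n = 3 each; exact permutation p = 0.1), with no overlap, as for Ifit2. The control for the 5′ end of the small-subunit ribosomal RNA read 10.94, 10.48 and 10.79 in tethered and 12.06, 12.16 and 11.15 in untethered replicates 1, 2 and 3 (log2; exact permutation p = 0.1). It too separated the groups, and its highest values were those of untethered replicates 1 and 2. The part of RNA quality in the differences of Irf1, Cxcl10 and Ifit2 was not tested.

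Irf1 and Cxcl10 are shown next because both share the high array. Their windows lie at chr11:53769764-53770013 on the plus strand and at chr5:92348890-92349139 on the minus strand. Capitals mark the same elements as above and also the NF-kappaB consensus, a motif added after the values were seen.
Irf1: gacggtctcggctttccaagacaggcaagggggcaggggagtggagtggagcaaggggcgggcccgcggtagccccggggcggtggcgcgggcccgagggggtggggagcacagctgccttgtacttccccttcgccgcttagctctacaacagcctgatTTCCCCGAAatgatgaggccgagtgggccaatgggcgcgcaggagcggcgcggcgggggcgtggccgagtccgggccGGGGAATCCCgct
Cxcl10: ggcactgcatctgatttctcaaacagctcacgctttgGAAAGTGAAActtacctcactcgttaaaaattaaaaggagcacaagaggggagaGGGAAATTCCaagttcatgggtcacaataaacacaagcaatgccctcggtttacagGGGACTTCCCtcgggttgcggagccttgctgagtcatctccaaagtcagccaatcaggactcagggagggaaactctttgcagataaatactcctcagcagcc

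Irf1 held 1 STAT element 90 bases before the start and 1 match to the NF-kappaB consensus 13 bases before it. Cxcl10 held 1 interferon response element 213 bases before the start and 2 matches to the NF-kappaB consensus, at 159 and 103 bases. The NF-kappaB consensus was found in 4 of the 27 genes with a window (B2m, Bst2, Cxcl10 and Irf1; 14.8%) and in 4.46% of all genes with a window. The STAT element was found in 5 (18.5%), against 8.13% of all genes with a window. Both searches covered either strand. The NF-kappaB motif was added with the values of Irf1 and Cxcl10 known, and both carry it, so its share is a description and no test. B2m and Bst2, the other carriers, did not have their highest value in untethered replicate 1.

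**Figure D2:**
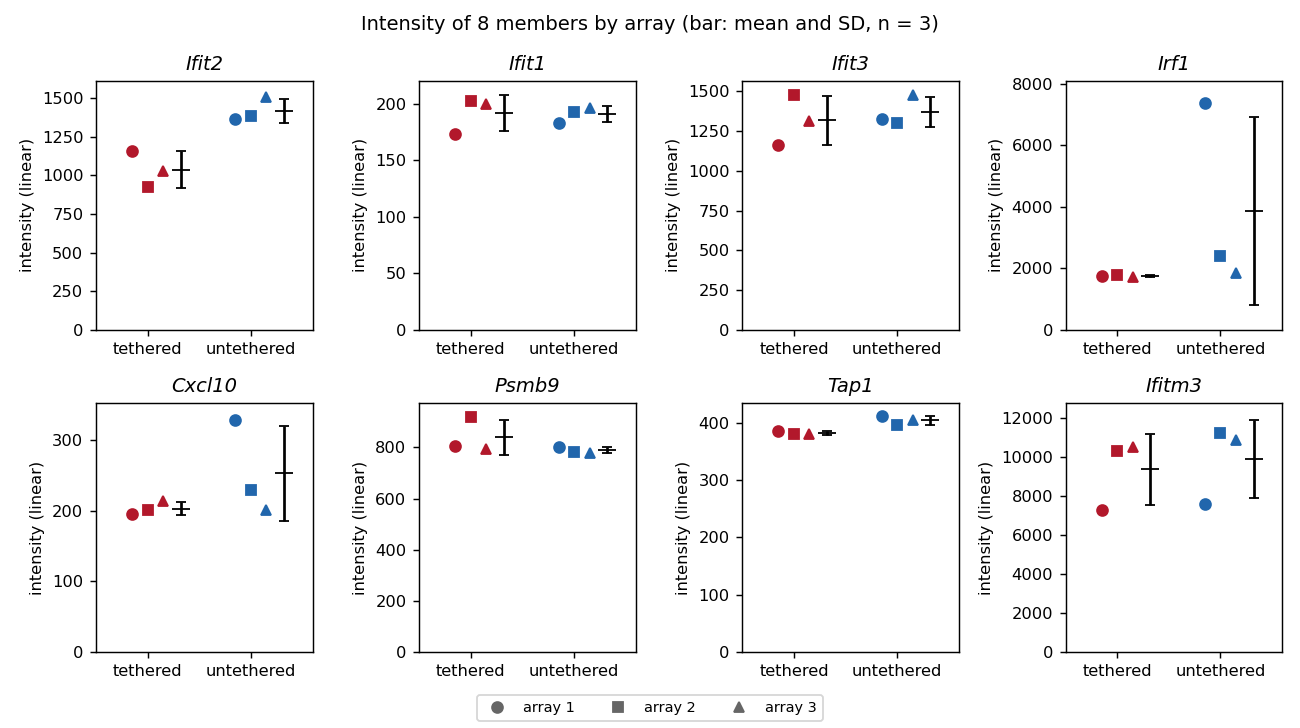
Intensity on a linear scale (y axis, from 0) of 8 genes in tethered (red, left) and untethered (blue, right) arrays, with the array number as the shape and the mean and SD of 3 arrays as a black bar. Ifit2 separates by group, Irf1 and Cxcl10 are high in untethered replicate 1, and Ifitm3 is low in both arrays numbered 1.

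The other transcription factors of the list differed little. Stat2, a factor of the type I response, stood at -0.12 (95% interval -0.35 to 0.11), and its second probe set at -0.01. Irf3, which virus sensors activate by phosphorylation, stood at -0.03 (95% interval -0.28 to 0.22), with 4 probe sets from -0.05 to 0.07. Irf7, the factor that amplifies type I interferon, stood at -0.02 and lay below the filter. Irf9, the DNA-binding subunit that joins STAT2, had 317, 262 and 215 in tethered against 257, 230 and 219 in untethered cells. Its difference of 0.15 (95% interval -0.21 to 0.52) was 0.015 without tethered replicate 1, the array with the highest value.

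Both RNA sensors had slightly higher values in tethered cells. Ifih1 had 201.2, 226.6 and 204.6 in tethered against 200.8, 193.0 and 186.5 in untethered cells, so the groups separate by less than 1 unit of intensity. Its difference was 0.12 (SE 0.072, 95% interval -0.05 to 0.30), and it lies below the filter. Ddx58 stood at 0.06 (SE 0.073), with its other probe sets at 0.01 and 0.07.

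The genes grouped as other antiviral effectors spread on both sides of 0, with 4 of 10 below it and a range from -0.14 to 0.15. Mx1, a GTPase that traps viral particles, had 137, 139 and 151 in tethered against 129, 129 and 128 in untethered cells. All tethered values were higher, by 0.15 on the log2 scale (SE 0.063, 95% interval -0.0041 to 0.30), in a gene below the filter. Its paralogue Mx2 stood at 0.01 (SE 0.066).

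Rsad2 (viperin) and Oas1a, which makes the second messenger that switches on RNase L, both stood at 0.08. Oasl2 stood at 0.07 and Bst2 (tetherin, which holds budding virus at the membrane) at 0.03. Xaf1 and Rtp4 both stood at -0.14. Usp18, the protease that removes ISG15 and damps receptor signalling, stood at 0.02. Gbp2, a guanylate-binding GTPase of the interferon gamma response, had 145, 165 and 163 in tethered against 193, 183 and 163 in untethered cells, a difference of -0.19 (95% interval -0.41 to 0.04), and its second probe set stood at -0.23. Gbp3 stood at 0.0019 with the widest interval of the genes below the filter, -0.46 to 0.46.

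Several genes were read by more than 1 probe set, and these did not always go the same way. Of the 30 genes, 11 had more than 1, and together the list had 48 probe sets. Ifi35 stood at -0.01 on its brightest and at 0.05 and -0.51 on the others. The last had 864, 653 and 639 in tethered against 1021, 1253 and 814 in untethered cells (limma, adjusted p = 0.999), and 1 tethered array lies within the untethered range. Xaf1 stood at -0.14 and 0.09, and Rtp4 at -0.14 and 0.19. Whether probes for the IFITM, OAS and guanylate-binding families also match their close relatives was not tested.

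**Figure D3:**
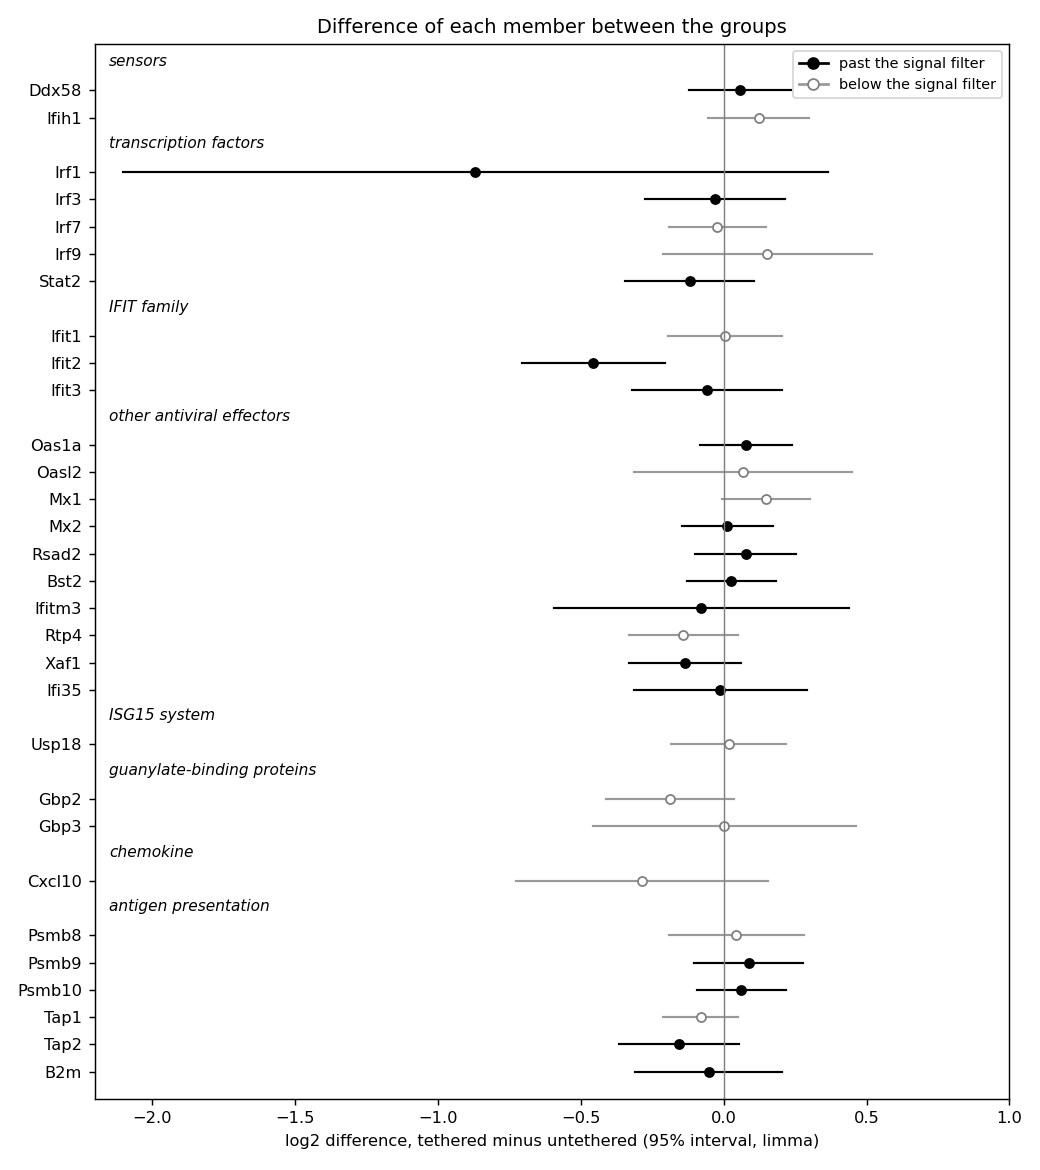
Log2 difference, tethered minus untethered, of each of 30 genes (x axis) with its 95% interval from limma; filled symbols passed the signal filter and open ones did not. The interval of Ifit2 lies wholly below 0, that of Irf1 spans from -2.10 to 0.36, and the other 28 include 0.

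All 6 genes of antigen presentation lay within 0.2 of 0 on the log2 scale, 3 of them below it. The peptides shown on class I molecules are cut by the proteasome, and interferon gamma swaps its catalytic subunits for Psmb8, Psmb9 and Psmb10. Psmb10 had 2624, 2710 and 2731 in tethered against 2704, 2497 and 2525 in untethered cells, a difference of 0.06 (SE 0.064, 95% interval -0.095 to 0.22). Psmb9 stood at 0.09 (SE 0.078) and Psmb8, which lies below the filter, at 0.04 (SE 0.097) and 0.12 on its 2 probe sets. Their constitutive counterparts Psmb5, Psmb6 and Psmb7 stood at 0.02, -0.0031 and 0.05. Limma called none of the subunits that were tested, and Psmb8 was not tested.

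Tap1 and Tap2 form the transporter that carries peptides into the endoplasmic reticulum. Tap1 had 386, 380 and 380 in tethered against 411, 396 and 406 in untethered cells, with no overlap. Its difference was small, at -0.08 (SE 0.054, 95% interval -0.21 to 0.05), and it lies below the filter, so it was not tested. Its other 3 probe sets stood between -0.12 and 0.0040 and overlapped. Tap2 had 714, 643 and 669 in tethered against 824, 738 and 701 in untethered cells, a difference of -0.16 (SE 0.087, 95% interval -0.37 to 0.06). B2m, the light chain of every class I molecule, stood at -0.05 (SE 0.11) and -0.01 on its 2 probe sets.

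Tap1 and Psmb9 are transcribed away from each other, with 225 bases between their annotated starts on chromosome 17. Within arrays the log2 ratio of Psmb9 to Tap1 was 1.13 ± 0.12 in tethered and 0.97 ± 0.021 in untethered cells (SD, n = 3 each). The groups did not overlap, and the exact permutation p was 0.1, two-sided, the smallest that 3 arrays against 3 allow. This ratio too was chosen after the values, and so the separation of Tap1 alone, were seen. The shared stretch is shown because it serves both genes, on the plus strand at chr17:34187306-34187555, read towards Tap1. It held neither the response element nor the STAT element, so no letter is in capitals.
Tap1 and Psmb9: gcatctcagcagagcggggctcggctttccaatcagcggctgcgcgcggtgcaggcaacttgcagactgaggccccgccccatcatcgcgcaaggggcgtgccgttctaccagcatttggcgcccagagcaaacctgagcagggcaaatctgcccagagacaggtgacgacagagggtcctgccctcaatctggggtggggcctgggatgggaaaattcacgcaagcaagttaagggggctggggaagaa

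The genes were also set out by the replicate number that arrays of both groups share. Both arrays numbered 1 lay above the other 4 for 2 of 30 genes, Irf3 and B2m (6.67%), where 11.4% of all genes did so. They lay below them for 4 of 30, Ifitm3, Bst2, Ifit1 and Gbp3 (13.3%), where 19.5% of all genes did so, so both shares were under those of the whole array. Ifitm3, whose protein blocks viral entry from endosomes, had 7287, 10313 and 10496 in tethered against 7572, 11252 and 10882 in untethered cells. Its difference between groups was -0.08 (SE 0.21), and arrays numbered 1 were lower than the rest by 0.53 on the log2 scale. The related Ifitm2 was lower there as well, by 0.64. Ifitm1, also related and below the filter, was not: its arrays overlapped, and those numbered 1 stood 0.098 above the rest.

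B2m had 12272, 10400 and 9872 in tethered against 12018, 11096 and 10520 in untethered cells, and the first value of each group is its highest. The class I heavy chain genes H2-K1 and H2-D1, and Canx, Calr and Pdia3, which fold and load them, were also above the other arrays in both arrays numbered 1. Among 17 genes of this pathway, measured members and others, 6 lay above and 3 below, where 11.4% and 19.5% of all genes did so. The 3 below were the constitutive subunits Psmb5, Psmb6 and Psmb7, with a number 1 minus numbers 2 and 3 difference of -0.22, -0.54 and -0.74. Psmb8, Psmb9 and Psmb10 overlapped, with -0.04, -0.02 and 0.03. Only Tap1 among the 17 separated the tethered from the untethered arrays. Over all genes, 4.49% separated with lower and 5.31% with higher values in tethered cells. These comparisons by number were made after the values were seen and carry no test.

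**Figure D4:**
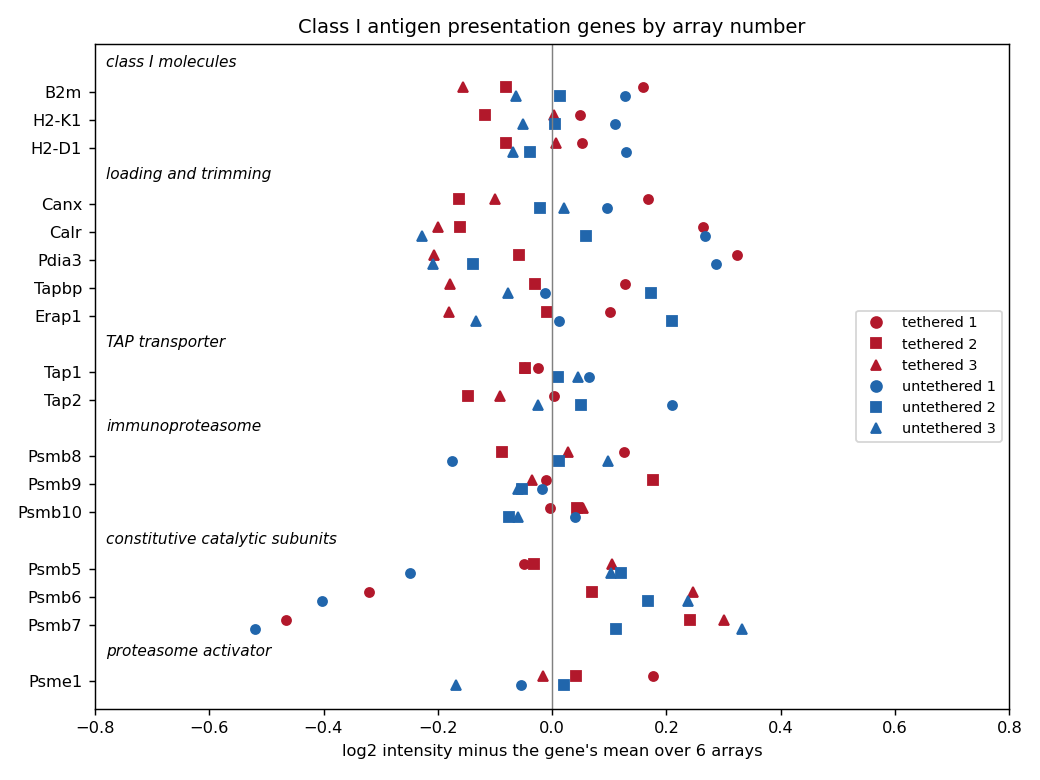
Deviation of 17 class I presentation genes from their own means over 6 arrays (x axis, log2 intensity), with circles for arrays numbered 1, squares for 2 and triangles for 3, red for tethered above blue for untethered. Circles lie to the right for B2m, H2-K1, H2-D1, Canx, Calr and Pdia3 and to the left for Psmb5, Psmb6 and Psmb7 in both groups.

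Of 75 further genes of interferon signalling and presentation, 66 were measured and 52 passed the filter. Limma called 0 of the 52, and at an unadjusted p under 0.05 there was 1 (1.92%), under the 2.44% of all genes past the filter. That gene was Irf2, which encodes a factor that competes with IRF1 for the same DNA elements. It had 539, 470 and 508 in tethered against 581, 653 and 619 in untethered cells, with no overlap. The difference was -0.29 (SE 0.083, 95% interval -0.49 to -0.09; limma, adjusted p = 0.999), and with 1 array left out it ran from -0.34 to -0.24.

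The next in order of p were Jak2, a kinase that receptors activate, at 0.18, and Dtx3l, a ubiquitin ligase, at -0.18. Then came Trim25, which activates RIG-I, at -0.20, and Irf2bp1, a co-repressor, at 0.15. They were followed by Pias1 at -0.17, the proteasome activator Psme1 at 0.13 and Socs3, a feedback inhibitor, at -0.14. The class I genes H2-K1 and H2-D1 stood at -0.04 and -0.02 and the loading factor Tapbp at -0.05. The groups also did not overlap for Parp14 and Ifi203, named for that after their values were seen, at 0.15 and 0.08. With Irf2, 1 of the 66 lay lower and 2 lay higher in tethered cells without overlap. Over all genes, 4.49% lay lower and 5.31% higher in that way. The 66 genes had a median of -0.012, with 36 below 0 and 61 within 0.2 of 0.

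Over the whole array, the median intensity ran from 482.5 to 490.8. Correlations of log2 signal between arrays, over the 22518 tested probe sets, ran from 0.92 to 0.991. All 10 fibroblast markers passed the filter, and their summed intensity ran from 78698 to 104309 in tethered and from 93904 to 103299 in untethered arrays. Their differences were all below 0, from -0.73 for Pdgfrb to -0.02 for Col1a2, where 58.8% of all genes past the filter were below 0. Pdgfrb alone separated the groups (limma, unadjusted p = 0.024, adjusted p = 0.999), where 4.49% of all genes were lower in that way. Of 10 macrophage markers, 6 passed, with sums from 6447 to 6516 in tethered and from 6518 to 7025 in untethered arrays, and Ptprc, the marker of all leukocytes, did not pass. Those macrophage sums did not overlap between the groups, but came as near as 6516 and 6518. Single macrophage markers went both ways, from -0.25 for Adgre1 to 0.07 for Csf1r. Any part of them in the difference of Ifit2 was not tested. Endothelial markers summed to 2625 to 2728 in tethered and 2421 to 2561 in untethered arrays, also with no overlap, and 3 of 5 passed the filter. Epithelial markers (2 of 5 passed) and plasmacytoid dendritic and lymphoid markers (2 of 4 measured passed) overlapped between the groups. Limma called none of the markers of these 5 lists, 0 of those tested. Passing the filter is not a call of expression, since no detection calls were used here.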

How the data were processed

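Biotin-labelled total RNA was read on Affymetrix arrays, per the labels. The deposited intensities are the authors' processed values on a linear scale; their software, scaling and genome build are not stated in the labels or file headers. All 45101 probe sets were read, 64 controls were left out, and 34945 had 1 symbol in the platform annotation, updated by gene identifier through RefSeq. Intensities under 16 were set to 16 and log2 was taken. limma 3.58.1 (R 4.3.3; lmFit and eBayes, no covariate, two-sided) compared 3 tethered with 3 untethered arrays over 22518 probe sets above the median signal, with Benjamini-Hochberg adjustment over all of them. The code was tested on simulated data. Exact permutation tests of single values used all 6 arrays. The number of arrays limits the precision. Genes, lists and the naming rule (all members; per-array values for the most different, the brightest and those that do not overlap; of other pathway genes, the 8 of smallest p and the counterparts of members) were chosen with earlier results of these data known. Alternatives were other floors, scalings, filters, variance models, probe set choices and arrays left out. The replicate numbers gave correlations of deviations of 0.71, 0.075 and 0.71 between groups, so arrays of the same number were alike in numbers 1 and 3. The labels name no pairing, and the main fit did not treat the samples as paired. Its errors and intervals therefore leave out any effect of the number, and a fit with the number as a block was run as an alternative. Promoters are from RefSeq, build GRCm38.p6.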

Additional observations from a re-analysis of the deposited data

How the results depend on the processing

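Limma called 0 probe sets under every alternative fit across all probe sets. The count of genes below 0 ran from 13 to 19 of 30 and the median difference from -0.049 to 0.015, over those alternatives, arrays left out and comparisons within a replicate number. With 1 array left out, the count of genes whose groups do not overlap ran from 7 to 12, and it was 15 without both arrays numbered 1; fewer arrays overlap less often by construction. Comparisons within a replicate number aside, the difference turned sign in 7 tested genes near 0. For Irf3 it was 0.0065 with quantile normalization and 0.0049 with the mean of its probe sets, and it ran from -0.083 to 0.045 with 1 array left out. For Ifi35 it was 0.0011 with quantile normalization and ran from -0.078 to 0.117. For Ifit3 it was 0.0091 without both arrays numbered 1 and ran from -0.143 to 0.028. With 1 array left out Mx2 ran from -0.012 to 0.045, Bst2 from -0.0074 to 0.055, Ifitm3 from -0.260 to 0.094 and B2m from -0.144 to 0.013. Within a number, signs also turned in others, such as Stat2 (0.023 in number 2) and Psmb10 (-0.044 in number 1). The cause was not tested. Ifit2 ran from -0.57 to -0.37 over all fits. With the replicate block, 0 probe sets were called and the median was -0.0046; only 4 of 6 arrays correlated best with their own number.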
